A study of Danio rerio with 8 samples.

Results

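Skeletal and heart muscle contractile genes of zebrafish larvae were examined after exposure to ZnO NPs, zinc oxide nanoparticles, or to ZnSO4, zinc sulfate, which dissolves to zinc ions. The set was a list of 50 zebrafish genes that build or serve the contractile apparatus, and its members were found by matching the accession of each array probe to RefSeq gene symbols. Of the 50 genes, 44 had at least 1 probe, out of 13293 gene symbols on the array, and together they had 111 of the 43603 probes. The classes were kept apart: 22 fast muscle genes with 52 probes, 6 slow muscle genes with 15 probes, 7 cardiac genes with 13 probes, and 9 genes shared among muscle types with 31 probes. No probe was assigned to myhz1.3, tnni2a.2, nppb, ttn.1, ttn.2 or neb. An older symbol led to 3 of the listed genes, tnnc2 (now tnnc2.2), vmhc (now myh7) and tnni1al (now tnni4b.2).

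RNA of whole larvae at 96 h after fertilization, exposed from the embryo stage, was hybridized to 1-color arrays in 3 groups. Larvae of the ZnO NPs group had been exposed to 2.64 mg/L ZnO NPs (3 arrays), those of the ZnSO4 group to 7.75 mg/L ZnSO4 (3 arrays), and the control larvae received neither (2 arrays). Per the study's methods, each RNA sample came from a pool of larvae kept together, and replicate samples were collected independently. The doses were set to the same lethality, a concentration that kills part of the larvae, so they differ in mass. The paper reports similar measured zinc concentrations for both doses. No strain, sex or transgene is given in the sources used here.

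Contraction in striated muscle is driven by myosin heads on thick filaments that pull on actin filaments. Calcium released from the sarcoplasmic reticulum binds troponin C and moves troponin and tropomyosin off the actin sites, and the muscle relaxes when the SERCA pump returns calcium to the reticulum and parvalbumin buffers what remains. Fast fibers, slow fibers, the atrium and the ventricle use different paralogs of most of these proteins, and the trunk of a larval fish is mostly fast muscle with a superficial layer of slow fibers.

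All 111 muscle probes lay well above background on all 8 arrays, and none had a saturated spot. Scaled signal, the background-corrected signal brought to the same 75th percentile on each array, ran from 47.41 to 442800 for muscle probes, and 35 of them averaged over 100000. All 8 arrays were on 1 slide, and the position codes in the file headers divide them into 2 sets of 4. The first set held ZnO NPs replicates 1 and 2 and both control arrays, and the other held ZnO NPs replicate 3 and all ZnSO4 arrays, so that ZnSO4 and its position cannot be told apart when ZnSO4 is set directly against the control. Between 77.5% and 85.8% of the probes of an array were well above background. The 2 control arrays were at 77.5% and 84.5%, and their muscle signals differed by a median of 0.16 on the log2 scale and by up to 0.96. For 63 of the 111 probes that gap between control arrays was larger than the difference between ZnO NPs and control, and for 54 probes it was larger than the difference between ZnSO4 and control. A gap between 2 single arrays varies more than a difference between group means. No such count was made over all tested probes, so these counts are not a trait of muscle probes.

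No muscle probe passed the test against the control after either exposure. The call required a fold of at least 1.5 and a limma adjusted p under 0.05 over all probes tested, and 0 of 111 probes met it for ZnO NPs (0.0433% of all tested probes did) and 0 of 111 for ZnSO4 (0.0231% of all tested probes did). The lowest adjusted p among muscle probes was 0.088 for ZnO NPs and 0.12 for ZnSO4. No muscle probe reached 1.5-fold at any p in either comparison, against 4.06% and 3.48% of all tested probes for ZnO NPs and ZnSO4. The log2 fold changes lay between -0.46 and 0.57 for ZnO NPs and between -0.41 and 0.55 for ZnSO4. The 95% interval excluded a 1.5-fold difference in either direction for 92 of the 111 probes (82.9%) in ZnO NPs and for 99 (89.2%) in ZnSO4, against 69.9% and 74.4% of all tested probes. The median standard error was 0.08 for muscle probes and 0.11 over all tested probes in both comparisons. The shares therefore do not compare probes of equal precision. Because whole larvae were extracted, fewer muscle cells and less RNA per muscle cell cannot be told apart for any of these differences.

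Smaller differences leaned downward. At an unadjusted p under 0.05 and any fold, 9 muscle probes were above the control and 19 below it after ZnO NPs (8.11% and 17.1% of muscle probes, against 15.1% and 10.0% of all tested probes). After ZnSO4 the counts were 8 above and 22 below (7.21% and 19.8%, against 9.16% and 9.22% of all tested probes). The exposed and control arrays did not overlap for 11 probes above and 41 below in ZnO NPs, where 23.7% and 18.2% of all tested probes behaved so. In ZnSO4 the groups did not overlap for 10 probes above and 47 below, against 19.6% in each direction among all tested probes. The log2 fold change was negative for 77 muscle probes in ZnO NPs and 79 in ZnSO4, where 45.0% and 46.3% of all tested probes had a negative value. These counts are a description of the list. Both comparisons use the same 2 control arrays, so they are not separate evidence of a direction, and the sign of the fast and shared class medians depended on the scaling, as given below with those medians.

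**Figure D1:**
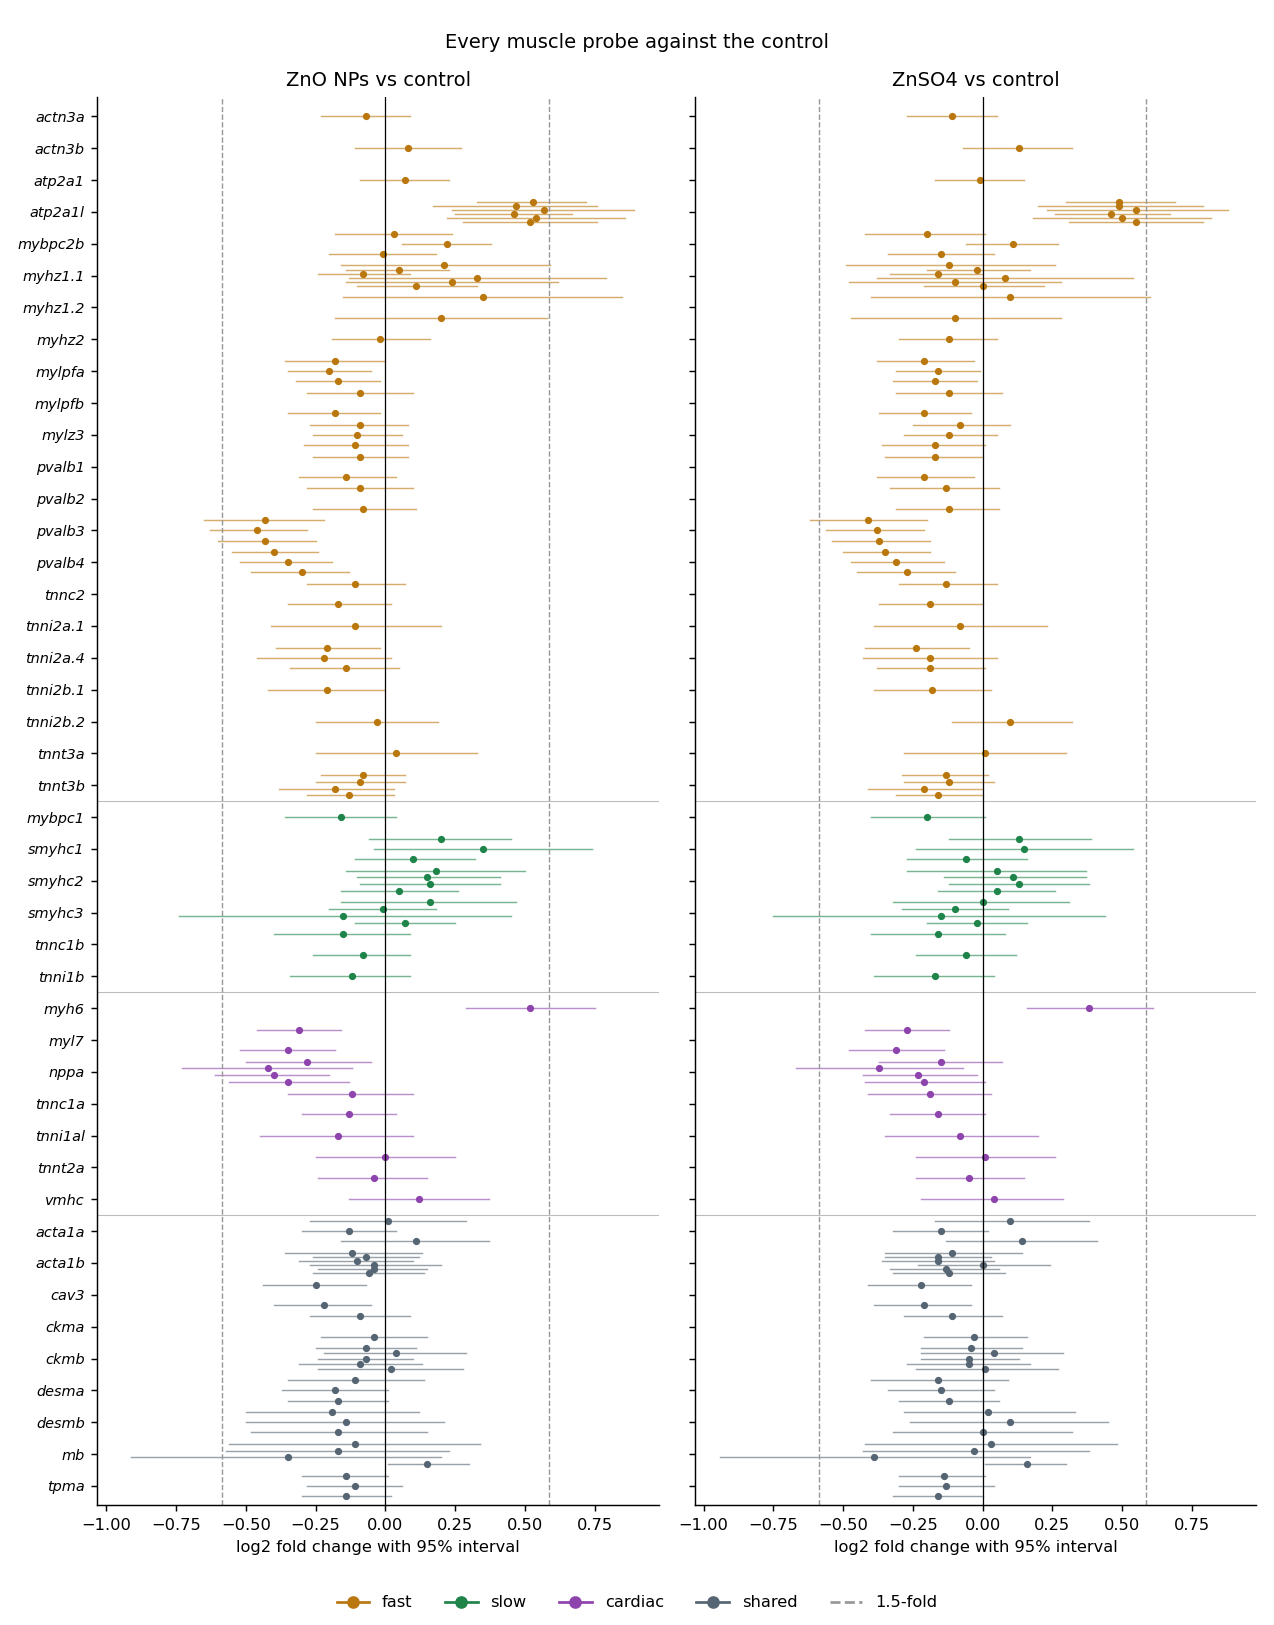
Log2 fold change of each muscle probe with its 95% interval for ZnO NPs against control (left) and ZnSO4 against control (right), by gene and class, with dashed lines at 1.5-fold. Every point lies inside the dashed lines. On the right of each panel the points farthest from 0 are those of atp2a1l and myh6. On the left they include pvalb3, pvalb4, nppa, myl7 and 1 mb probe. In the ZnO NPs panel, probes of smyhc1 and myhz1.2 (up to 0.35 each) and myhz1.1 (up to 0.33) also lie well to the right of 0.

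Among the fast muscle genes, the calcium pump gene atp2a1l had the largest positive differences. It encodes a SERCA1-type ATPase that returns calcium to the sarcoplasmic reticulum, and all 6 of its probes were above the control in both exposures, at 0.46 to 0.57 on the log2 scale in ZnO NPs (1.37-fold to 1.48-fold) and 0.46 to 0.55 in ZnSO4. The brightest probe, A_15_P104804, gave a scaled signal of 48770, 44300 and 50250 in ZnO NPs, 46240, 46910 and 46430 in ZnSO4, and 31220 and 35030 in the control. Its group means were 47770 ± 3096 (SD, n = 3) in ZnO NPs, 46530 ± 346.7 (SD, n = 3) in ZnSO4 and 33120 ± 2693 (SD, n = 2) in the control. All 6 exposed arrays stood above both control arrays, and the same was true of the other atp2a1l probes. For A_15_P104804 the log2 fold change was 0.53 with a standard error of 0.08 in ZnO NPs (adjusted p = 0.088) and 0.49 with a standard error of 0.08 in ZnSO4 (adjusted p = 0.12). Over the 6 probes the adjusted p ran from 0.088 to 0.12 in ZnO NPs and from 0.12 to 0.18 in ZnSO4, so none passed. Of the dimmer probes with the largest differences, A_15_P381015 gave 1817, 1574 and 2050 in ZnO NPs, 1693, 1975 and 1700 in ZnSO4, and 1107 and 1336 in the control. Probe A_15_P726596 gave 1690, 1562 and 2047 in ZnO NPs, 1639, 1780 and 1698 in ZnSO4, and 1079 and 1344 in the control. At A_15_P769151 the signals were 1225, 1114 and 1290 in ZnO NPs, 1180, 1274 and 1252 in ZnSO4, and 769.6 and 920.8 in the control. These 3 probes repeat the separation seen at the brightest one. With the position set as a block, the 6 log2 fold changes were 0.38 to 0.49 in ZnO NPs (adjusted p = 0.18 to 0.20). Those values rest on ZnO NPs replicates 1 and 2 alone, since replicate 3 lay in the other set. In ZnSO4 the log2 fold changes were 0.17 to 0.49 (adjusted p = 0.57 to 0.81), only the ZnO NPs arrays linking the sets in that fit. The paralog atp2a1, the main SERCA1 gene of fast fibers, had 1 probe with 281300, 285500 and 279700 in ZnO NPs, 277300, 265200 and 260400 in ZnSO4, and 280500 and 257800 in the control. That probe differed from the control by 0.07 in ZnO NPs and -0.01 in ZnSO4, and its groups overlapped. Whether the probes of atp2a1l and atp2a1 also bind transcripts of the other paralog was not tested.

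The control array labelled replicate 2 bore on these calls. Without it, 5 muscle probes were called in ZnO NPs, 4 of atp2a1l (log2 fold changes of 0.61 to 0.70) and the myh6 probe (0.64), and 1 atp2a1l probe (0.68) was called in ZnSO4. The remaining control array alone was then the baseline, its spread being taken from the exposed groups, and 4.80% of all tested probes were called in ZnO NPs and 2.62% in ZnSO4. Without control replicate 1 instead, no muscle probe was called, and the atp2a1l probes lay 0.39 to 0.45 above the remaining control array in ZnO NPs and 0.34 to 0.42 above it in ZnSO4.

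Parvalbumins, the soluble calcium buffers that speed relaxation of fast fibers, differed in degree by paralog. Of pvalb3, all 3 probes were below the control, by -0.46 to -0.43 on the log2 scale in ZnO NPs and by -0.41 to -0.37 in ZnSO4. Its probe A_15_P664371 gave 10500, 10420 and 9890 in ZnO NPs, 10980, 10920 and 10520 in ZnSO4, and 14890 and 13330 in the control. The exposed arrays therefore all stood below both control arrays, with an adjusted p of 0.088 in ZnO NPs and 0.14 in ZnSO4 for that probe. Another pvalb3 probe, A_15_P118321, gave 8703, 8081 and 7724 in ZnO NPs, 8606, 8188 and 8069 in ZnSO4, and 11880 and 10240 in the control. Of pvalb4, all 3 probes were likewise below the control, by -0.40 to -0.30 in ZnO NPs and by -0.35 to -0.27 in ZnSO4. Its brightest probe gave 115300, 109500 and 108200 in ZnO NPs, 114900, 113400 and 111500 in ZnSO4, and 144600 and 129800 in the control, again without overlap (adjusted p = 0.11 and 0.17). The brightest pvalb4 probe is also the one with the smallest difference. Under quantile normalization it was at -0.14 in ZnO NPs and -0.08 in ZnSO4. The pvalb1 and pvalb2 probes lay closer to the control, between -0.14 and -0.08 in ZnO NPs and between -0.21 and -0.12 in ZnSO4, with scaled signals between 165300 and 305200 on the 8 arrays. Both pvalb1 probes were still below both control arrays on every exposed array, and both pvalb2 probes were so in ZnSO4. Among all tested probes, 18.2% in ZnO NPs and 19.6% in ZnSO4 were below without overlap. In the RefSeq annotation pvalb3 and pvalb2 have 1 gene between them, as do pvalb4 and pvalb1. In each such pair of neighbors one paralog lay farther below the control than the other at the main scaling.

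**Figure D2:**
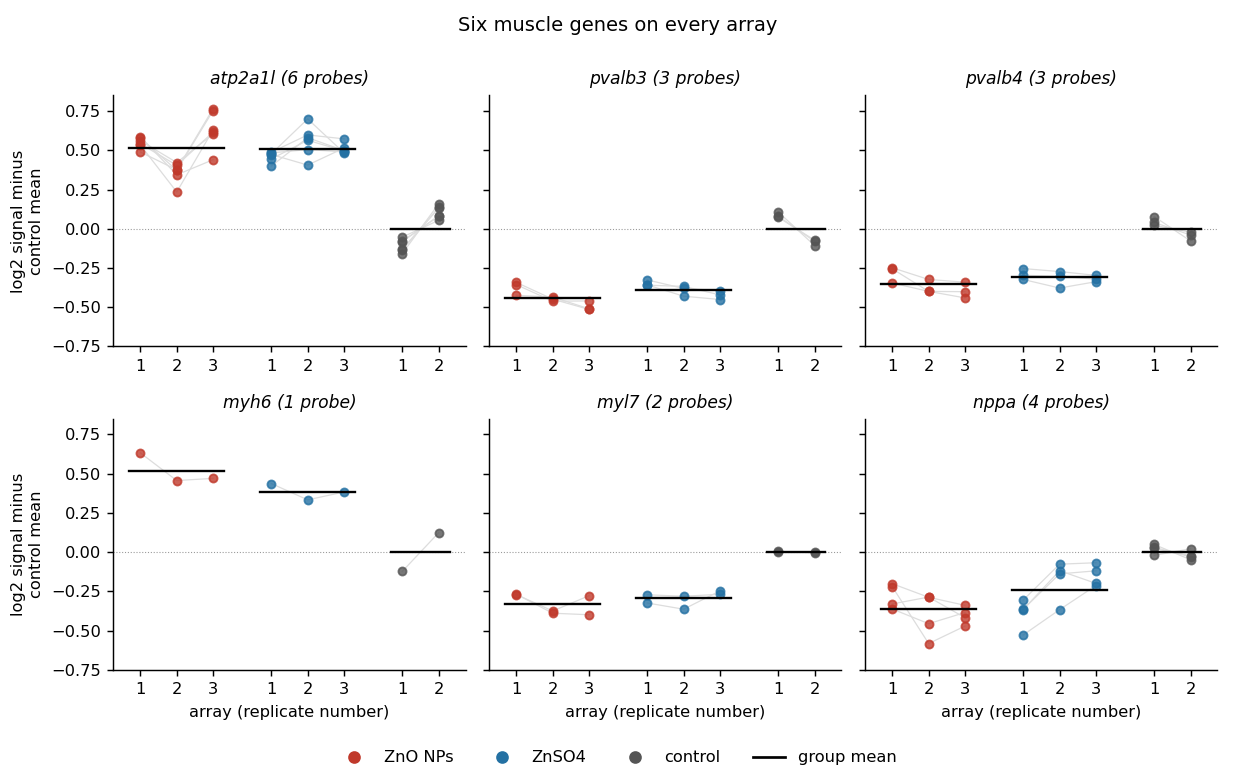
Log2 signal of 6 muscle genes on each array relative to the mean of the control arrays; a point is a probe, thin lines join the values of a probe within a group, black bars are group means, and replicate numbers have no order. For atp2a1l and myh6 every ZnO NPs and ZnSO4 point lies above every control point of the same panel, and for pvalb3, pvalb4, myl7 and nppa every exposed point lies below.

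Fast myosin light chains were slightly below the control, to a degree that depended on the scaling. The fast regulatory light chain mylpfa had 3 probes at -0.20 to -0.17 in ZnO NPs and -0.21 to -0.16 in ZnSO4, and its brightest probe gave 213900, 227100 and 222100 in ZnO NPs, 231100, 215200 and 204700 in ZnSO4, and 253700 and 246800 in the control. No exposed array reached a control array at any of these 3 probes, while the adjusted p stayed between 0.14 and 0.25. Under quantile normalization the difference of the brightest mylpfa probe was -0.01 in ZnO NPs and 0 in ZnSO4. Its paralog mylpfb had 2 probes at -0.18 and -0.09 in ZnO NPs and -0.21 and -0.12 in ZnSO4. The fast alkali light chain mylz3 had 3 probes at -0.11 to -0.09 in ZnO NPs and -0.17 to -0.08 in ZnSO4.

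At most fast myosin heavy chain probes the 2 control arrays differed more from each other than the exposed groups differed from the control. The 6 probes of myhz1.1 gave log2 fold changes of -0.08 to 0.33 in ZnO NPs and -0.16 to 0.08 in ZnSO4, so the probes of this gene disagreed in sign. Its probe A_15_P655096 gave 68590, 70380 and 64800 in ZnO NPs, 60870, 67400 and 45470 in ZnSO4, and 45270 and 64620 in the control. The third ZnSO4 array and the first control array were low and nearly equal, and every group but ZnO NPs covered a wide range. The brightest myhz1.1 probe, A_15_P624916, did not share this spread. It gave 413700, 438300 and 406800 in ZnO NPs, 412100, 397400 and 377900 in ZnSO4, and 442800 and 441900 in the control. All exposed arrays were below both control arrays there (adjusted p = 0.52 in ZnO NPs and 0.28 in ZnSO4). The 2 probes of myhz1.2 were at 0.20 and 0.35 in ZnO NPs and -0.10 and 0.10 in ZnSO4. The single probe of myhz2 gave 183700, 192800 and 189100 in ZnO NPs, 186600, 173500 and 165300 in ZnSO4, and 190700 and 190600 in the control, differing from it by -0.02 and -0.12. The genes myhz1.1, myhz1.2 and myhz1.3 lie next to each other in the RefSeq annotation with no gene between them, and whether their probes also bind transcripts of the neighboring paralogs was not tested.

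**Figure D3:**
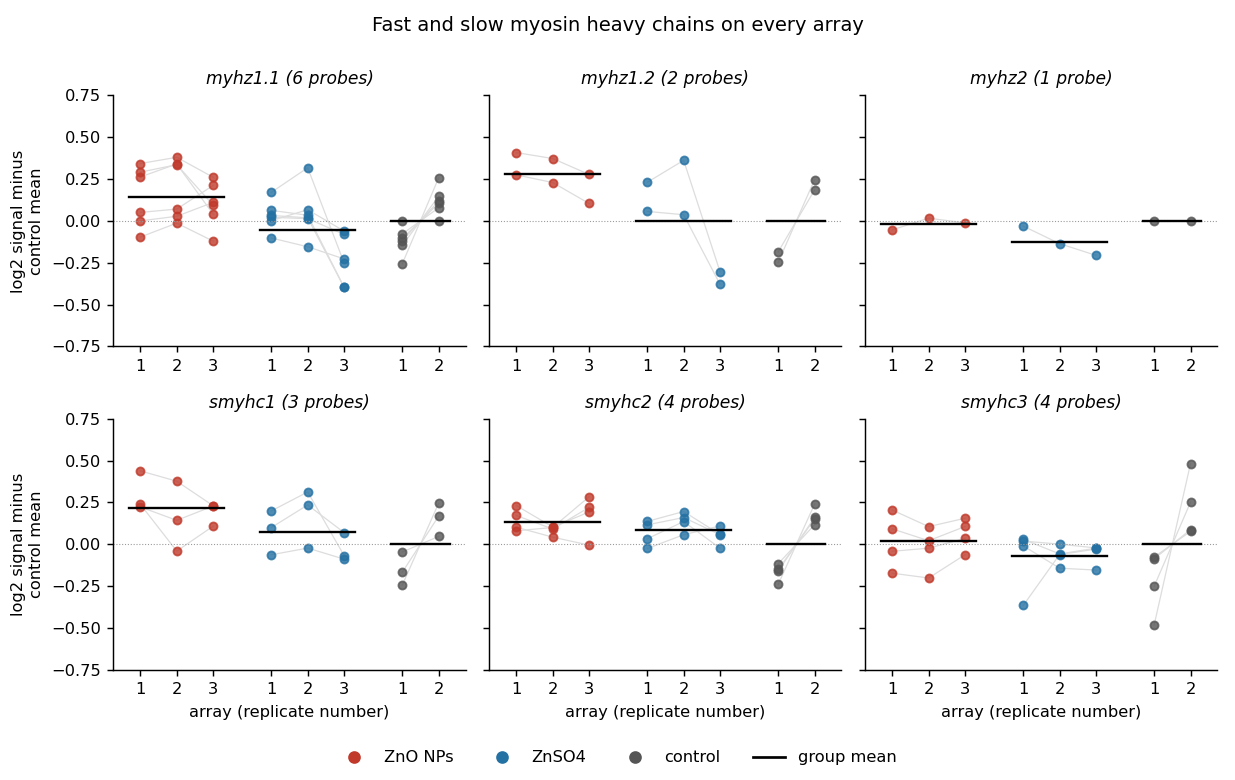
Log2 signal of the fast (top) and slow (bottom) myosin heavy chain genes on each array relative to the mean of the control arrays, drawn in the same way as the plot of 6 genes. The control arrays stand apart from each other for most probes of every gene shown except myhz2, and ZnSO4 replicate 3 lies below the other ZnSO4 arrays for myhz1.1 and myhz1.2.

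The fast troponin genes, which encode the calcium switch of the thin filament, were mostly a little below the control. The troponin C gene tnnc2 had 2 probes at -0.17 and -0.11 in ZnO NPs and -0.19 and -0.13 in ZnSO4. Of the troponin I genes, tnni2a.4 had 3 probes at -0.22 to -0.14 in ZnO NPs and -0.24 to -0.19 in ZnSO4, and tnni2b.1 had 1 probe at -0.21 and -0.18. The single tnni2a.1 and tnni2b.2 probes were at -0.11 and -0.03 in ZnO NPs and at -0.08 and 0.10 in ZnSO4. The troponin T gene tnnt3b had 4 probes at -0.18 to -0.08 in ZnO NPs and -0.21 to -0.12 in ZnSO4, whereas its paralog tnnt3a had 1 probe at 0.04 and 0.01. Every adjusted p in this group was at least 0.17 in ZnO NPs and 0.21 in ZnSO4.

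Other fast genes gave differences of both signs. The Z-disc cross-linker alpha-actinin 3 was at -0.07 in ZnO NPs and -0.11 in ZnSO4 for actn3a, and at 0.08 and 0.13 for actn3b. The thick filament gene mybpc2b, a fast myosin-binding protein C, had 3 probes at -0.01 to 0.22 in ZnO NPs and -0.20 to 0.11 in ZnSO4. The brightest of these, A_15_P734621, gave 160800, 149900 and 147800 in ZnO NPs, 144900, 136800 and 141600 in ZnSO4, and 131200 and 131100 in the control. All exposed arrays were above both control arrays at that probe, with an adjusted p of 0.13 in ZnO NPs and 0.44 in ZnSO4. The other mybpc2b probes went the opposite way in ZnSO4, at -0.20 and -0.15, with every ZnSO4 array below both control arrays. In ZnO NPs those probes overlapped the control.

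Slow muscle genes gave differences of both signs. None of the 15 probes reached an unadjusted p under 0.05 in either exposure, the lowest adjusted p being 0.24 in ZnO NPs and 0.28 in ZnSO4. The slow myosin heavy chain smyhc1 had 3 probes at 0.10 to 0.35 in ZnO NPs and -0.06 to 0.15 in ZnSO4. The smyhc1 probe with the largest difference, A_15_P178346, gave 2273, 2178 and 1968 in ZnO NPs, 1926, 2083 and 1601 in ZnSO4, and 1416 and 1988 in the control, so its groups overlapped. Probe A_15_P115480 gave 13330, 12610 and 13380 in ZnO NPs, 12240, 13440 and 11990 in ZnSO4, and 10170 and 12830 in the control. The brightest smyhc1 probe gave 31100, 25630 and 28410 in ZnO NPs, 25240, 25950 and 24790 in ZnSO4, and 25530 and 27230 in the control, and both of these probes overlapped as well. The adjacent paralogs smyhc2 and smyhc3 had 4 probes each, at 0.05 to 0.18 and -0.15 to 0.16 in ZnO NPs and at 0.05 to 0.13 and -0.15 to 0.00 in ZnSO4. In contrast to smyhc1 and smyhc2, the slow troponins tnnc1b (-0.15 and -0.08 in ZnO NPs) and tnni1b (-0.12), and mybpc1, a myosin-binding protein C of slow fibers, were below the control. The brighter tnnc1b probe gave 49150, 46430 and 43310 in ZnO NPs, 46570, 45300 and 46410 in ZnSO4, and 57380 and 46160 in the control. The tnni1b probe gave 937.9, 974.0 and 989.0 in ZnO NPs, 966.7, 900.1 and 934.6 in ZnSO4, and 1158 and 957.3 in the control. For both genes the first control array was the highest and the other lay among the exposed arrays. The mybpc1 probe gave 233.8, 236.3 and 259.1 in ZnO NPs, 222.2, 239.1 and 249.3 in ZnSO4, and 284.1 and 258.7 in the control. The log2 fold change came to -0.16 in ZnO NPs (adjusted p = 0.28) and -0.20 in ZnSO4 (adjusted p = 0.28), and only the ZnO NPs group overlapped the control, by 1 array. For 13 of the 15 slow probes the gap between the 2 control arrays was larger than the difference between ZnO NPs and control, a count not made over all tested probes.

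Among cardiac genes, the atrial myosin heavy chain stood above the control, whereas the regulatory light chain and natriuretic peptide stood below it, none past the test. The atrial myosin heavy chain myh6 had 1 probe, which gave 275.6, 243.9 and 246.3 in ZnO NPs, 240.7, 224.0 and 231.9 in ZnSO4, and 163.3 and 193.7 in the control. Every exposed array was above both control arrays, at a log2 fold change of 0.52 with a standard error of 0.10 in ZnO NPs (adjusted p = 0.098) and 0.38 with a standard error of 0.10 in ZnSO4 (adjusted p = 0.17). The myh6 probe was dim, with signals under 300 on every array. With another background correction (normexp) it was at 0.36 in ZnO NPs and 0.21 in ZnSO4. The ventricular myosin heavy chain vmhc gave 2876, 2869 and 3051 in ZnO NPs, 2816, 2905 and 2587 in ZnSO4, and 2407 and 3022 in the control. The vmhc groups overlapped, and the log2 fold change came to 0.12 in ZnO NPs and 0.04 in ZnSO4.

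The cardiac regulatory light chain myl7, expressed in both chambers of the larval heart, was below the control at both of its probes. Its brighter probe gave 4264, 3966 and 4242 in ZnO NPs, 4260, 4232 and 4269 in ZnSO4, and 5159 and 5129 in the control. The 2 control arrays differed little here, no exposed array came near them, and the log2 fold change was -0.31 with a standard error of 0.06 in ZnO NPs (adjusted p = 0.10) and -0.27 with a standard error of 0.06 in ZnSO4 (adjusted p = 0.16). The other myl7 probe gave 2872, 2641 and 2623 in ZnO NPs, 2763, 2688 and 2915 in ZnSO4, and 3458 and 3461 in the control, at -0.35 in ZnO NPs and -0.31 in ZnSO4 on the log2 scale.

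Atrial natriuretic peptide, encoded by nppa and used as a marker of cardiac chambers and cardiac load, was also below the control. Its 4 probes were at -0.42 to -0.28 in ZnO NPs and -0.37 to -0.15 in ZnSO4. Probe A_15_P656141 gave 54.83, 51.39 and 53.99 in ZnO NPs, 54.70, 64.94 and 61.40 in ZnSO4, and 71.64 and 69.39 in the control, so the exposed arrays were all lower. The probe with the largest difference, A_15_P626291, gave 60.93, 47.41 and 51.21 in ZnO NPs, 49.24, 55.06 and 61.25 in ZnSO4, and 72.52 and 69.52 in the control, again without overlap. The brightest nppa probe gave 228.7, 215.4 and 207.9 in ZnO NPs, 212.8, 249.3 and 250.9 in ZnSO4, and 272.0 and 254.3 in the control. Here 2 of the 3 ZnSO4 arrays came close to the lower control array, and the adjusted p over the 4 probes was 0.10 to 0.15 in ZnO NPs and 0.22 to 0.42 in ZnSO4. With the position set as a block, only ZnO NPs replicates 1 and 2 enter the difference between ZnO NPs and control. In that fit the nppa probes were at -0.41 to -0.24 in ZnO NPs and at -0.30 to -0.06 in ZnSO4. These are among the dimmest muscle probes, with signals under 300 on every array. With normexp background correction they were at -0.22 to -0.10 in ZnO NPs and -0.25 to -0.14 in ZnSO4.

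The remaining cardiac genes lay near the control. Cardiac troponin T, tnnt2a, gave 2812, 2691 and 2456 in ZnO NPs, 2794, 2545 and 2671 in ZnSO4, and 2393 and 2939 in the control at its brightest probe, with the groups overlapping and its 2 probes at 0.00 and -0.04 in ZnO NPs and at 0.01 and -0.05 in ZnSO4. Cardiac troponin C, tnnc1a, had probes at -0.13 and -0.12 in ZnO NPs and -0.19 and -0.16 in ZnSO4. The troponin I gene tnni1al was at -0.17 in ZnO NPs and -0.08 in ZnSO4. Across the 13 cardiac probes, 1 was above and 6 were below the control at an unadjusted p under 0.05 in ZnO NPs (15.1% and 10.0% of all tested probes were). In ZnSO4 the counts were 1 above and 4 below (9.16% and 9.22% of all tested probes). The 6 probes below the control in ZnO NPs comprise all 4 nppa and both myl7 probes, so they stand for 2 genes.

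Genes shared among muscle types were close to the control. Caveolin 3, cav3, the muscle form of the membrane scaffold caveolin, had the largest differences with agreeing probes, at -0.25 and -0.22 in ZnO NPs and -0.22 and -0.21 in ZnSO4. Its brighter probe gave 9851, 9219 and 8813 in ZnO NPs, 9540, 9343 and 9597 in ZnSO4, and 11680 and 10490 in the control, without overlap (adjusted p = 0.13 and 0.23). Skeletal actin lay closer to the control, with 6 acta1b probes at -0.12 to -0.04 in ZnO NPs and -0.16 to 0.00 in ZnSO4, and 3 acta1a probes at -0.13 to 0.11 and -0.15 to 0.14. Probe A_15_P662937 of acta1a gave 34160, 34260 and 36070 in ZnO NPs, 32660, 37700 and 36650 in ZnSO4, and 36480 and 28730 in the control, with overlap. The brightest acta1b probe gave 192900, 197800 and 193200 in ZnO NPs, 196400, 186900 and 177000 in ZnSO4, and 217600 and 188400 in the control, overlapping too. Muscle creatine kinase, which rebuilds ATP from phosphocreatine, was between -0.09 and 0.04 in ZnO NPs and between -0.11 and 0.04 in ZnSO4 over the 7 probes of ckma and ckmb. The brightest ckma probe gave 140500, 140500 and 137000 in ZnO NPs, 146100, 136700 and 131600 in ZnSO4, and 155800 and 141500 in the control. Tropomyosin, tpma, which covers the myosin sites on actin, had 3 probes at -0.14 to -0.11 in ZnO NPs and -0.16 to -0.13 in ZnSO4, and the brightest gave 248400, 263100 and 262700 in ZnO NPs, 259500, 251700 and 252100 in ZnSO4, and 294700 and 274800 in the control. All exposed arrays were below both control arrays at that probe, with an adjusted p of 0.24 in ZnO NPs and 0.27 in ZnSO4, and its difference in ZnSO4 changed sign, to 0.03, under quantile normalization.

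The intermediate filament desmin and the oxygen carrier myoglobin were uneven. The 3 desma probes were at -0.18 to -0.11 in ZnO NPs and -0.16 to -0.12 in ZnSO4, and the brightest gave 33760, 33230 and 36120 in ZnO NPs, 37510, 33810 and 34050 in ZnSO4, and 37540 and 40360 in the control, just without overlap. The 3 desmb probes were at -0.19 to -0.14 in ZnO NPs and 0.00 to 0.10 in ZnSO4. The 4 probes of mb disagreed. Its brightest probe gave 9821, 8938 and 8455 in ZnO NPs, 9119, 10010 and 10940 in ZnSO4, and 12440 and 7689 in the control, so that the 2 control arrays enclosed all exposed arrays. At A_15_P720941 the values were 6743, 6442 and 6509 in ZnO NPs, 6466, 6605 and 6668 in ZnSO4, and 6013 and 5799 in the control, 0.15 and 0.16 above the control on the log2 scale. At A_15_P224954 the values were 130.7, 84.89 and 81.00 in ZnO NPs, 95.81, 91.18 and 95.98 in ZnSO4, and 151.4 and 100.2 in the control, with log2 fold changes of -0.35 and -0.39. No direction can be given for mb from these probes.

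Over the probes of each class, the median log2 fold change was -0.09 for fast, 0.07 for slow, -0.17 for cardiac and -0.11 for shared muscle in ZnO NPs, beside 0.03 over all tested probes. In ZnSO4 the medians were -0.13 for fast, -0.02 for slow, -0.16 for cardiac and -0.11 for shared muscle, beside 0.02 over all tested probes. The fast and shared medians turned positive under quantile normalization (0.05 and 0.02 in ZnO NPs, 0.04 and 0.04 in ZnSO4), and the slow median of ZnO NPs was -0.01 when arrays were aligned on their medians and -0.05 when the probes of a gene were averaged first. The cardiac median was negative in both exposures under each alternative tried, but several alternatives, such as other filters, could not move it. In ZnSO4 it was -0.08 when the probes of a gene were averaged first and -0.06 with the position set as a block. Array by array, the cardiac median relative to the control mean was -0.20, -0.22 and -0.27 in ZnO NPs, -0.17, -0.12 and -0.12 in ZnSO4, and 0 on both control arrays. Because the 2 control arrays set that mean, their medians mirror each other, and a value of 0 does not show that they agreed. Cardiac probes differed between the 2 control arrays by a median of 0.13 and by up to 0.33. The fast median was -0.09, -0.06 and -0.10 in ZnO NPs, -0.09, -0.13 and -0.19 in ZnSO4, and 0.02 and -0.02 in the control. The slow medians of the 2 control arrays, -0.12 and 0.12, enclosed those of all exposed arrays, and among shared genes the control medians, 0.07 and -0.07, lay so far apart that 2 of the ZnSO4 arrays fell between them.

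**Figure D4:**
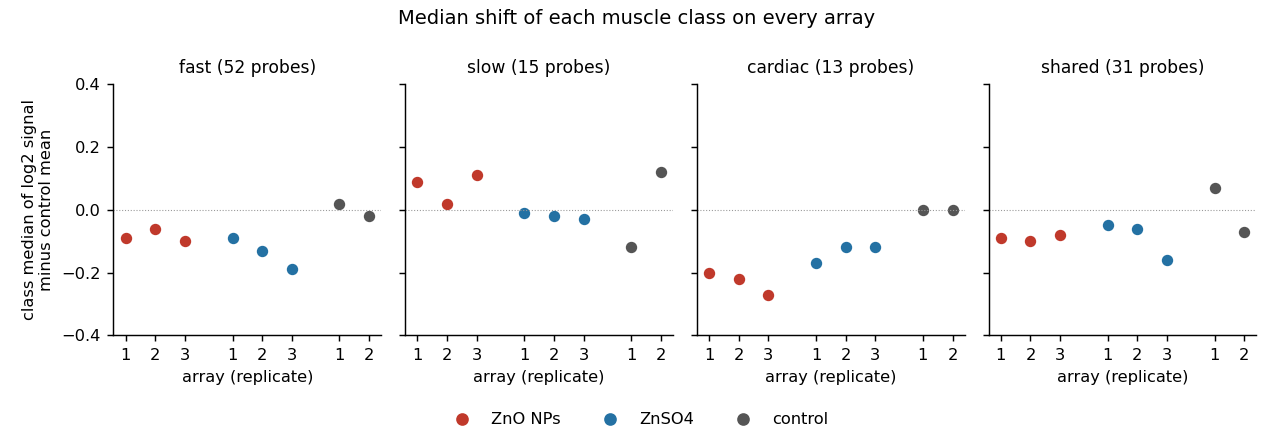
Median over the probes of a class of the log2 signal on each array minus the control mean, for fast, slow, cardiac and shared muscle genes; replicate numbers have no order. All exposed arrays lie below both control arrays for fast and cardiac genes, whereas the 2 control arrays enclose the exposed arrays for slow genes.

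Counted by gene rather than by probe, the mean over a gene's probes was negative for 31 and positive for 12 of the 44 genes in ZnO NPs, and negative for 33 and positive for 10 in ZnSO4. Of the 31 genes with 2 or more probes, the probes had the same sign for 25 in ZnO NPs and for 22 in ZnSO4. At every probe of the gene, the exposed arrays stood above both control arrays for atp2a1l and myh6 in ZnO NPs, and for atp2a1l, myh6 and actn3b in ZnSO4. They stood below both control arrays at every probe for 11 genes in ZnO NPs, namely pvalb1, pvalb3, pvalb4, mylpfa, mylz3, tnnc2, tnni2b.1, myl7, nppa, cav3 and tpma, and for 15 genes in ZnSO4. Of the genes named, myh6, actn3b and tnni2b.1 had 1 probe each. No count by gene was made over the whole array. By probe, 23.7% of all tested probes stood above and 18.2% below in ZnO NPs, and 19.6% each way in ZnSO4. Negative log2 fold changes made up 45.0% of all tested probes in ZnO NPs and 46.3% in ZnSO4. The counts by gene were made at the main scaling only. Under quantile normalization the fast and shared medians were positive, and the brightest tpma probe was at 0.03 in ZnSO4.

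ZnO NPs and ZnSO4 were compared directly to see whether the exposures left the muscle genes at different levels. The paper also measured dissolved zinc in ZnO NPs exposures, so the comparison does not set particles alone against zinc ions. No muscle probe was called (0% of all tested probes were), the lowest adjusted p was 0.81, and no probe reached 1.5-fold (1.27% of all tested probes did). The log2 differences, ZnO NPs over ZnSO4, ran from -0.24 to 0.34, and the 95% interval excluded a 1.5-fold difference for 106 of the 111 probes (95.5%, against 82.7% of all tested probes). The median standard error here was 0.08 for muscle probes and 0.1 over all tested probes. At an unadjusted p under 0.05, 1 muscle probe was above and 0 were below ZnSO4 (3.93% and 1.76% of all tested probes were). The groups did not overlap for 9 probes above and 3 below ZnSO4 (8.89% and 5.43% of all tested probes), and 46 of the 111 differences were negative (45.4% of all tested probes). The probe with an unadjusted p under 0.05, A_15_P196131 of mybpc2b, gave 1677, 1641 and 1752 in ZnO NPs and 1311, 1546 and 1465 in ZnSO4. For the genes with the largest differences from the control, the direct log2 differences were small: between -0.03 and 0.04 for the 6 atp2a1l probes, between -0.07 and -0.02 for pvalb3, between -0.05 and -0.03 for pvalb4, -0.04 and -0.03 for myl7, between -0.17 and -0.06 for nppa, and 0.14 for myh6. With the position set as a block they were -0.02 to 0.26 for atp2a1l, -0.13 to -0.09 for pvalb3, -0.09 to -0.07 for pvalb4, -0.09 to 0 for myl7, -0.21 to -0.10 for nppa and 0.09 for myh6. Only ZnO NPs replicate 3 shared a set with the ZnSO4 arrays, so the block values rest on that 1 ZnO NPs array. A fit within that set is the same contrast, with the same values, and is no separate check. The largest direct differences were those of myhz1.1, at 0.34 and 0.33 for 2 of its probes. The first, A_15_P657891, gave 70790, 73010 and 61770 in ZnO NPs and 60430, 59220 and 43970 in ZnSO4, and the other, A_15_P331879, gave 64130, 67680 and 54980 in ZnO NPs and 54680, 54150 and 40610 in ZnSO4. The third ZnSO4 array was the lowest at both, and no ZnSO4 array reached a ZnO NPs array. Class medians of the direct difference were 0.03 for fast, 0.05 for slow, -0.03 for cardiac and -0.01 for shared genes.

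**Figure D5:**
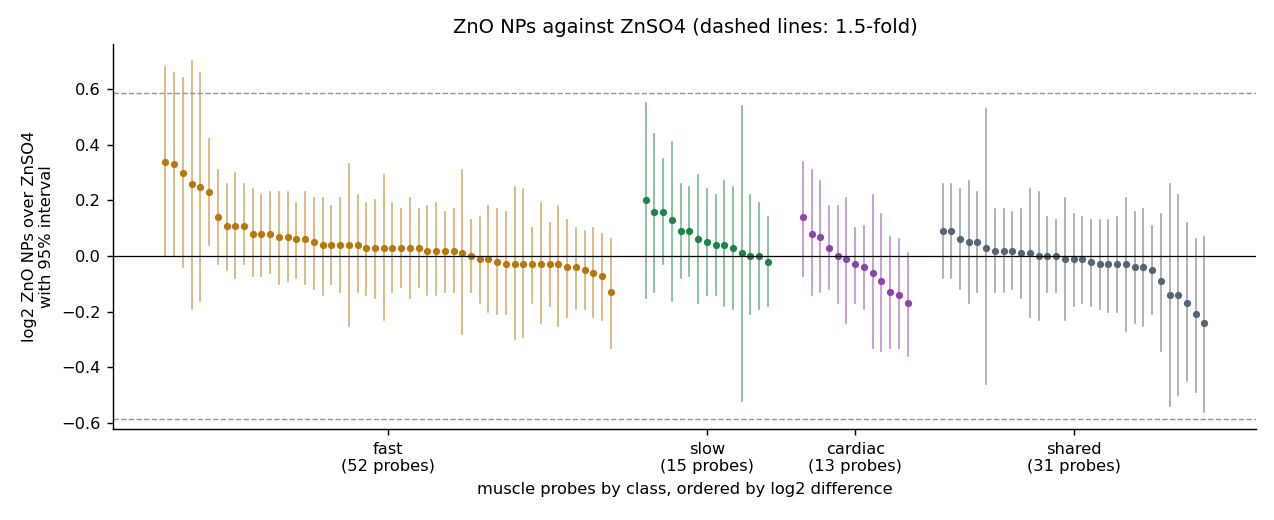
Log2 difference of ZnO NPs over ZnSO4 with its 95% interval for each of the 111 muscle probes, by class and in order of size, with dashed lines at 1.5-fold. All points lie between -0.24 and 0.34, and nearly all intervals include 0.

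Around the contractile genes, 95 further genes of excitation-contraction coupling, sarcomere assembly and the Z-disc, myogenic and cardiac regulators, the neuromuscular junction, atrophy and muscle energy metabolism were listed, of which 77 were tested with 158 probes. None was called in any comparison. At 1.5-fold and an unadjusted p under 0.05, 6 probes were above and 3 below the control in ZnO NPs (3.05% of all tested probes in both directions together), and 0 above and 3 below in ZnSO4 (2.39%). These probes belonged to 3 genes, named here after their values were seen. The first, ryr1b, encodes a ryanodine receptor, the channel that releases calcium from the sarcoplasmic reticulum and so acts opposite to the SERCA pump. All 6 of its probes were above the control, at 0.48 to 0.92 in ZnO NPs (adjusted p = 0.088 to 0.13) and 0.24 to 0.59 in ZnSO4 (adjusted p = 0.17 to 0.60). Its probe A_15_P332454 gave 151, 158 and 144 in ZnO NPs, 120, 144 and 114 in ZnSO4, and 75.2 and 97.3 in the control, with no overlap at that probe. Two-group separation was not shared by all ryr1b probes, since A_15_P641749 and A_15_P678001 overlapped the control in ZnSO4. Apart from A_15_P626676, the ryr1b probes were dim, with signals under 300 on every array. The second, hsp90aa1.1, encodes a chaperone needed for myosin folding in zebrafish muscle, and its 3 probes were at -0.84 to -0.78 in ZnO NPs and -0.67 to -0.62 in ZnSO4. The brightest of them gave 9190, 8980 and 10500 in ZnO NPs, 9950, 10800 and 11500 in ZnSO4, and 20700 and 14100 in the control. The exposed arrays were all below both control arrays, which themselves stood well apart, and the adjusted p over the 3 probes was 0.098 to 0.10 in ZnO NPs and 0.16 to 0.18 in ZnSO4. The last, the cardiac transcription factor tbx20, had 1 probe at 0.82 in ZnO NPs that was well above background on only 1 of the 2 control arrays and 1 of the 3 ZnSO4 arrays.

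Markers of other larval tissues were read beside the muscle genes, and none of their probes was called. The lens markers, 3 genes with 8 probes, had a median log2 fold change of -0.50 in ZnO NPs and -0.72 in ZnSO4, with a summed scaled signal of 154000 to 170000 in ZnO NPs, 129000 to 137000 in ZnSO4 and 146000 to 292000 in the control. At an unadjusted p under 0.05, 5 of the 8 lens probes were below the control in ZnO NPs and 7 in ZnSO4, against 10.0% and 9.22% of all tested probes. The liver markers, 5 genes with 11 probes, were at -0.43 in ZnO NPs and -0.15 in ZnSO4, with sums of 356000 to 505000, 513000 to 531000 and 585000 to 591000 in ZnO NPs, ZnSO4 and control arrays. Neuron markers summed to 116000 to 120000 in ZnO NPs, 114000 to 117000 in ZnSO4 and 116000 to 118000 in the control, a 1.06-fold range over the 8 arrays. The smooth muscle markers, 4 genes with 5 probes, had medians of 0.29 in ZnO NPs and 0.26 in ZnSO4, while their sums, 49500 to 59100 in ZnO NPs and 53000 to 57300 in ZnSO4, lay between those of the 2 control arrays, 40500 and 63300. Skin markers, 4 genes with 25 probes, had medians of -0.07 in ZnO NPs and -0.16 in ZnSO4, with 20 and 24 probes negative, and summed to 1900000 to 2010000 in ZnO NPs, 1640000 to 1840000 in ZnSO4 and 1770000 to 2440000 in the control. Exocrine pancreas markers, 6 genes with 11 probes, had medians of -0.15 in ZnO NPs and 0.24 in ZnSO4 and summed to 215000 to 342000 in ZnO NPs, 334000 to 411000 in ZnSO4 and 200000 to 560000 in the control, a 2.80-fold range over the arrays. All 11 of those probes were lower in ZnO NPs than in ZnSO4, by a median of -0.44 and without a call. Red blood cell markers, 4 genes with 9 probes, had medians of 0.18 in ZnO NPs and -0.01 in ZnSO4, with sums of 267000 to 324000 in ZnO NPs, 256000 to 273000 in ZnSO4 and 236000 to 346000 in the control. Whether the makeup of the larvae had a part in the muscle values was not tested.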

How the data were processed

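Arrays of 8 whole-larva RNA samples were analysed in 3 groups taken from the labels. Per the file headers, the authors extracted background-corrected spot intensity with Agilent Feature Extraction 10.10.1.1 (10.10 in the submitters' processing notes); normalized log2 values deposited by the authors were reached by a percentile shift and, once centred, differed from the values used here by at most 0.006. Of the 62976 spots on an array, 1319 control spots and outlier spots were left out; log2 intensity was averaged over the spots of a probe, and the 75th percentile of each array was subtracted. Tests were run on 34617 of 43603 probes, those flagged above background on all arrays of at least 1 group, of which 34616 could be tested against the control. The 3 groups entered a single limma fit (limma 3.58.1, R 4.3.3; 5 residual and 2.42 prior degrees of freedom) with Benjamini-Hochberg adjustment over all tested probes. The test was checked on simulated data. The number of arrays limits the precision of every value.

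Probes were assigned to genes through accessions in RefSeq (assembly GRCz12tu), 25854 probes having a symbol; the arrays' own genome build was not used. Values on every array were given by rule for the probes with the largest differences per class and exposure and for 15 measured genes chosen for their role, at the brightest probe of each; probes shown beyond these were picked after their values were seen. The gene set, the lists and the rule were chosen with earlier results of these data known. Probe sequences were not used here, and whether probes also bind transcripts of paralogs was not tested for any gene. Alternatives were other normalizations and background correction, other filters, the deposited log2 values, other tests, blocks for replicate number and slide position, averaging over the probes of a gene, and leaving out each array.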

Additional observations from a re-analysis of the deposited data

How the results depend on the processing

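Under quantile normalization the medians of fast and shared muscle probes were 0.05 and 0.02 in ZnO NPs and 0.04 and 0.04 in ZnSO4, 1 muscle probe reached 1.5-fold at an unadjusted p under 0.05 in ZnO NPs, and the brightest tpma probe reversed to 0.03 in ZnSO4. With arrays aligned on their medians the fast, slow, cardiac and shared medians were -0.18, -0.01, -0.26 and -0.19 in ZnO NPs, and the fast and cardiac medians were -0.19 and -0.22 in ZnSO4. The median over all tested probes lay between -0.06 and 0.06 under both scalings and normexp background correction. Normexp background correction gave a cardiac median of -0.10 in ZnO NPs, and averaging the probes of a gene gave a slow median of -0.05 in ZnO NPs and a cardiac median of -0.08 in ZnSO4. With the position set on the slide as a block the cardiac median was -0.06 in ZnSO4 against control and -0.09 in ZnO NPs against ZnSO4. The fit within the set holding both exposures, an alternative chosen after seeing the data, also gave -0.09 for ZnO NPs against ZnSO4. For that comparison the 2 fits are the same contrast and rest on ZnO NPs replicate 3 alone. Leaving out each array in turn gave 0 to 5 muscle probes called in ZnO NPs and 0 to 1 in ZnSO4, and 0 to 8 and 0 to 4 probes at 1.5-fold and an unadjusted p under 0.05; the highest values came without control replicate 2. The count at an unadjusted p was also above 0 without control replicate 1 (1 in each exposure), in ZnO NPs without ZnO NPs replicate 2 (2), and in ZnSO4 without ZnSO4 replicate 1 (2) or replicate 3 (1). The medians then ranged in ZnO NPs from -0.11 to -0.05 (fast), 0 to 0.16 (slow), -0.31 to -0.15 (cardiac) and -0.16 to -0.01 (shared), and in ZnSO4 from -0.17 to -0.10, -0.10 to 0.16, -0.23 to -0.13 and -0.13 to -0.04 in the same order. Without control replicate 2 the probes called were 4 of atp2a1l (0.61, 0.65, 0.70 and 0.70) and myh6 (0.64) in ZnO NPs and 1 of atp2a1l (0.68) in ZnSO4. Same-numbered arrays correlated at -0.07 to 0.15 in their deviations from the group means, and differently numbered ones at -0.19 to 0.12. With so few arrays in a group the deviations mirror each other, so these values cannot decide whether replicate numbers pair the samples. The replicate block left 0 muscle probes called, with fast, slow, cardiac and shared medians of -0.07, 0.07, -0.18 and -0.09 in ZnO NPs and -0.11, -0.02, -0.16 and -0.08 in ZnSO4. Only without control replicate 2 was a muscle probe called, among the alternatives run. The methods' analysis of variance gave 0 muscle probes at 1.5-fold, with or without adjustment. That count was fixed in advance, since the same group differences enter it and none reached 1.5-fold. Other tests or filters that keep those differences likewise could not call a muscle probe. Across 19 alternatives in ZnO NPs the log2 fold changes of atp2a1l (0.37 to 0.70), myh6 (0.36 to 0.64), pvalb3 (-0.54 to -0.33), pvalb4 (-0.48 to -0.14), myl7 (-0.44 to -0.27) and nppa (-0.57 to -0.10) kept their sign. Across 18 alternatives in ZnSO4 the signs were also kept, at 0.17 to 0.69 for atp2a1l, 0.21 to 0.51 for myh6, -0.52 to -0.29 for pvalb3, -0.41 to -0.08 for pvalb4, -0.37 to -0.23 for myl7 and -0.47 to -0.06 for nppa. Several alternatives, such as other filters, could not move these estimates. For ZnO NPs against control, the position block, the fit within a set and leaving out ZnO NPs replicate 3 are the same contrast. These genes were also singled out for their large differences in the same data, so the kept signs are no separate evidence.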
